A study of Mus musculus with 8 samples.

Results

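The replication-dependent histone genes were examined in single-cell RNA-seq of mouse embryonic stem (mES) cells with and without CX-5461, an inhibitor of RNA polymerase I, the enzyme that transcribes rRNA genes. Members were all genes whose GENCODE symbol begins with Hist1h, Hist2h, Hist3h or Hist4h. The rule found 70 of 54146 genes, 6 of histone type H1, 20 of H2A, 19 of H2B, 12 of H3 and 13 of H4. Of these, 67 were annotated as protein coding, and 56 lay on chromosome 13, 10 on chromosome 3, 3 on chromosome 11 and 1 on chromosome 6.

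Both conditions used E14 wild-type mES cells, an established line, grown for 2 days on gelatin with mouse embryonic fibroblast feeders in LIF/2i medium. The labels list 4 samples for the untreated control and 4 for CX-5461, but every barcode of a condition stands in 1 table without a sample of origin, so that each condition was 1 library. The CX-5461 dose and exposure used for these cells are not given in the sources used here. Libraries were made with the 10x Single Cell 3′ v2 kit, and counts are unique molecular identifiers (UMIs), each marking a captured RNA molecule.

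After removal of cells under 500 UMIs or over 0.2 mitochondrial, 3767 control cells with 49483868 UMIs and 4697 CX-5461 cells with 68745851 UMIs remained. Medians were 12987 and 14213 UMIs per cell, but 29.6% of control cells and 4.17% of CX-5461 cells held fewer than 5000. Cells of both libraries expressed the ES cell gene Pou5f1, and a distinct set carried markers of the feeders. These feeder-marker cells, with 1% or more of their UMIs from 15 fibroblast genes (Col1a1, Sparc and others), numbered 215 in control and 164 with CX-5461. Only 2 further cells per library held 0.5% to 1%, and 8 per library held 1% to 1.5%. Pou5f1 stood at 52.8 and 21.6 UMIs per 1000000 UMIs (CPM) in them and at 919 and 742 CPM in the other cells. All intervals below are 95% intervals that cover counting error only, and with 1 library per condition no test between conditions was possible.

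Replication-dependent histone genes supply the bulk of new histones while DNA is copied. Their mRNAs lack introns and normally end not in a poly(A) tail but shortly after a conserved stem-loop, which the stem-loop binding protein SLBP holds through processing, export and translation. The mRNAs are made at the start of S phase and destroyed when DNA synthesis stops. The kit used here captures RNA by its poly(A) stretches, so that the counts report only the fraction of histone mRNA that was caught this way. Some of these genes also give polyadenylated transcripts from sites downstream of the stem-loop, mainly in cells that have left the cell cycle.

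The stem-loop and the bases before it are shown for the members on which the results turn, since they set where an mRNA ends and whether adenines precede that end. Stem-loops are in capitals, in GENCODE M21 transcripts of GRCm38, with up to 10 bases before and up to 4 after.
Hist1h2ab: ccaaaacaaaGGCTCTTTTCAGAGCCaccc
Hist1h2ad: taaaaacaaaGGCTCTTTTCAGAGCCatcc
Hist1h2ap: aaaaaaaaaaGGCTCTTTTCAGAGCCatc
Hist1h2ac: caaacccaaaGGCTCTTTTCAGAGCCccca
Hist3h2ba: ccaacccaaaGGCTCTTTTCAGAGCCacct
Hist2h4: catccctaacGGCCCTTTTTAGGGCCaacc
Hist1h1c: caatccaaaaGGCTCTTTTCAGAGCCacca
The pattern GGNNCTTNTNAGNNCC, searched on the transcript strand, was in an annotated transcript of 46 members and in 0.221% of all 141767 transcripts. The other members need not lack a stem-loop. Several have a short annotated transcript that may end before it, such as Hist1h2ai and Hist1h2an with 393 bases each. The 16 bases of the first stem-loop were shared by 26 members. Adenines were counted only in members with the pattern, 11 of 20 H2A and 12 of 13 H4 members among them. In the 10 bases before the stem-loop, these H2A members held a median of 7 adenines and these H4 members of 5. Hist1h2ap held 10 and Hist2h4 held 3. The 6 H2A members with 7 or more adenines had a median level of 360 CPM in the control and the 5 with fewer a median of 10.0 CPM, a description across genes that also differ in promoter and in shared sequence. Over all types the gap was smaller, with medians of 11.4 CPM for 14 members and 4.597 CPM for 32, and among H1 members the order was reversed, at 0.0404 CPM for 1 member and 4.77 CPM for 3.

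Histone transcripts together were 2.55-fold lower in the CX-5461 library, and nearly all of this was H2A. The members held 180256 UMIs in the control, or 3643 CPM (3626 to 3660). With CX-5461 they held 98146 UMIs, or 1428 CPM (1419 to 1437), a ratio of 0.392 (0.389 to 0.395). H2A, a core histone, made up 90.4% of histone UMIs in the control and 79.5% with CX-5461. Its summed level was 3293 CPM in the control and 1135 CPM with CX-5461, a ratio of 0.345 (0.342 to 0.348). The other types were captured far less. H4 stood at 67.1 and 41.3 CPM, a ratio of 0.616 (0.586 to 0.648). H3 stood at 82.3 and 63.7 CPM, a ratio of 0.774 (0.742 to 0.808).

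The linker histone H1 and H2B, the core histone that pairs with H2A, differed little between libraries over all cells but were lower with CX-5461 outside the feeder-marker cells. H2B was at 163 CPM in the control and 149 CPM with CX-5461 over all cells, a ratio of 0.913 (0.886 to 0.940). Without feeder-marker cells the H2B ratio was 0.416 (0.398 to 0.434), and the H2B sum without Hist1h2bc over all cells had a ratio of 0.368. H1 was at 37.2 and 38.8 CPM, a ratio of 1.04 (0.981 to 1.11) over all cells and 0.812 (0.757 to 0.872) without feeder-marker cells. The H4 ratio was 0.495 and the H3 ratio 0.750 in the same cells, and H2A was nearly unmoved at 0.332. Outside the feeder-marker cells every type was therefore lower with CX-5461, under library totals as under TMM scaling.

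Member by member, 55 of the 70 held at least 200 UMIs over both libraries and 15 held fewer, of which Hist3h2bb-ps held none. Of the 55, 28 had a ratio of 0.5 or less, against 3.71% of all 12358 genes with that many UMIs, and 2 had a ratio of 2 or more, against 17.8% of all genes. The 28 were 10 of 16 H2A members, 9 of 12 H2B, 7 of 11 H4, 2 of 11 H3 and 0 of 5 H1. The median log2 ratio was -1.02 over the 55 members and 0.34 over all genes, since most genes had a higher CPM with CX-5461. By type the medians were -1.41 for H2B, -1.21 for H2A, -1.15 for H4, -0.41 for H3 and -0.40 for H1. Without feeder-marker cells, 30 of 52 members were at 0.5 or less and 2 at 2 or more, against 3.61% and 19.8% of all genes. TMM scaling, which takes 0.35 from every log2 ratio, turned Hist1h1a and Hist1h3b from higher to lower and left 6 members above their control level. Under this scaling the median log2 ratio was -1.37 over the 55 members and -0.01 over all genes.

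**Figure D1:**
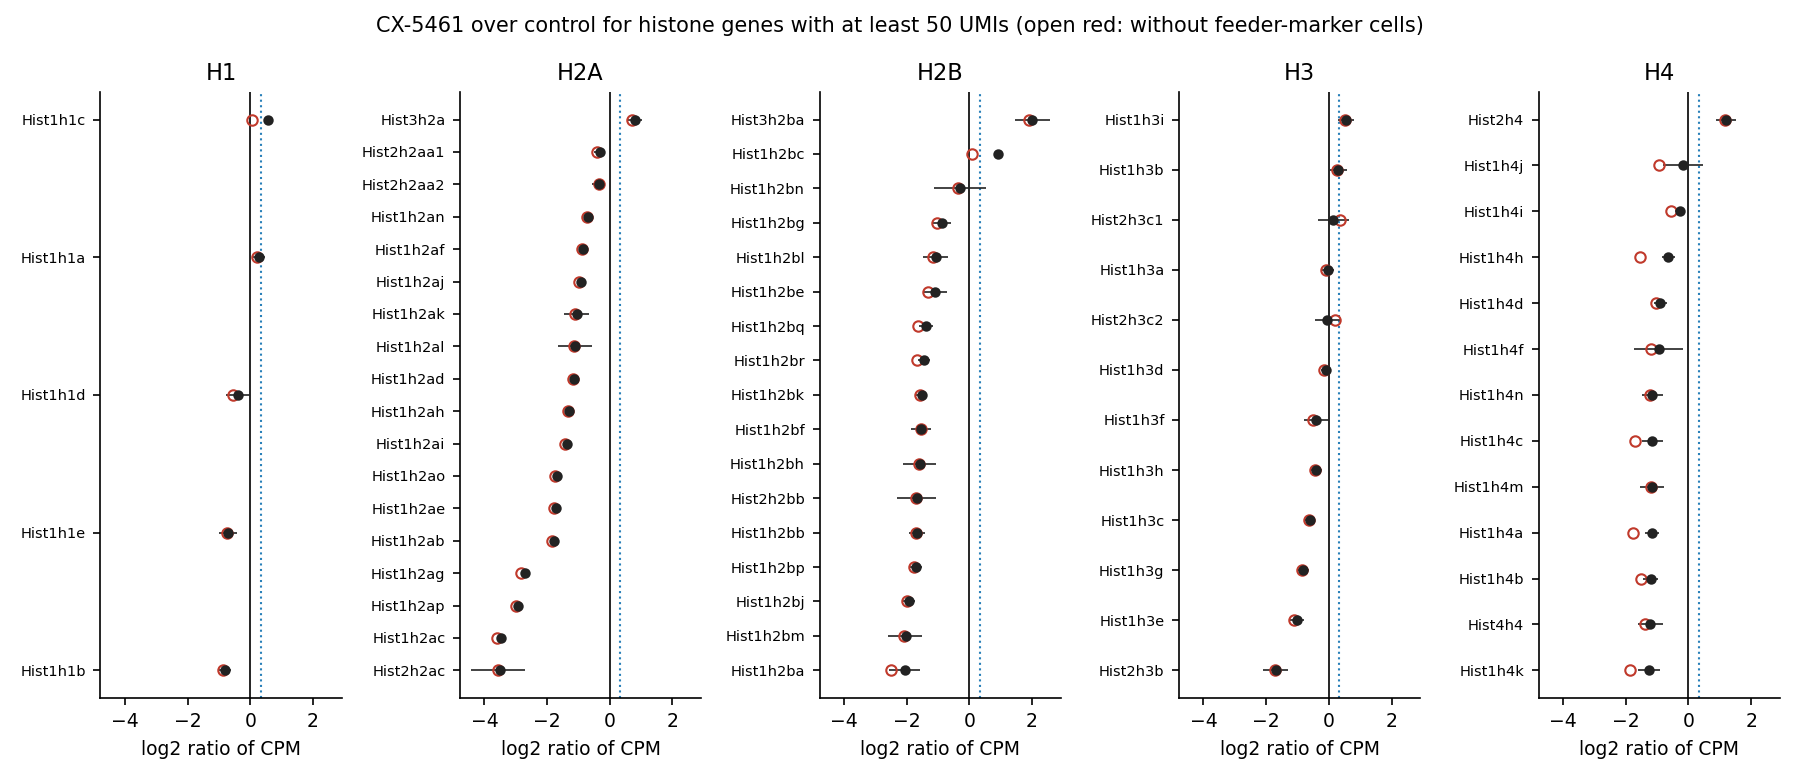
Log2 ratio of CX-5461 over control CPM for each histone gene with at least 50 UMIs over both libraries, by type, with 95% counting intervals (black), and the same ratio without feeder-marker cells (open red). The dotted line is the median of all genes, 0.34. Most members lie left of 0, H2A reaches -3.51 at Hist2h2ac, and the open points of Hist1h2bc, Hist1h1c and several H4 genes lie left of their black points.

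As counted, H2A genes were not lowered alike. The most abundant, Hist1h2ab (ENSMUSG00000061615.2, chr13:23751126-23751598, plus strand, GRCm38), held 33435 UMIs in the control and 13414 with CX-5461. Its level was 676 CPM (668 to 683) and 195 CPM (192 to 198), 3.46-fold lower. Hist1h2ad (chr13:23574381-23574952, plus strand) was at 582 and 266 CPM, 2.19-fold lower, and became the leading H2A gene with CX-5461. Hist1h2ae was at 304 and 92.3 CPM, 3.29-fold lower. Hist1h2ap (chr13:21833026-21833507, minus strand), whose stem-loop follows the run of 10 adenines, was at 417 and 54.4 CPM, 7.67-fold lower (7.40 to 7.94). Its log2 ratio was -2.94. Hist1h2ao, with the same run, had a log2 ratio of -1.69, and Hist1h2ac, with 6 adenines, had -3.46. The order of the H2A genes therefore changed in the deposited counts. Hist1h2ap went from 12.7% of H2A UMIs to 4.79% and Hist1h2ad from 17.7% to 23.4%. These genes share sequence with other members. The shared part was 92.2% of the 100-base windows of Hist1h2ap, 63.6% of Hist1h2ad, 52.4% of Hist1h2ab and 30.7% of Hist1h2ae. Whether UMIs were given to the right copy alike in both libraries was not tested.

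The lowest ratios belonged to Hist1h2ac and Hist2h2ac. Hist1h2ac (ENSMUSG00000069270.6, chr13:23681467-23683948, minus strand) held 8490 UMIs in the control and 1074 with CX-5461, or 172 CPM (168 to 175) and 15.6 CPM (14.7 to 16.6), 10.98-fold lower (10.3 to 11.7). After thinning every cell to 5000 UMIs, 48.9% of control cells (47.0% to 50.9%) held a Hist1h2ac UMI. With CX-5461 the share was 6.998% (6.27% to 7.78%). In CX-5461 feeder-marker cells the share was 9.26% and the level 26.7 CPM, above the 14.95 CPM of the other cells, so that what remained with CX-5461 was not above the level in cells of another type. Hist1h2ac overlaps the small gene Gm24991 on the same strand. Hist2h2ac, on chromosome 3, held 115 and 14 UMIs, 11.4-fold lower with a wide interval (6.53 to 21.5). At the other end Hist1h2an was at 141 and 88.3 CPM, 1.60-fold lower. Hist3h2a, on chromosome 11, was the only H2A member with at least 200 UMIs that was higher, at 4.43 and 7.65 CPM, a ratio of 1.73 (1.47 to 2.03). It shares bases on the same strand with Trim17, and 32.6% of its control counts and 6.20% of its CX-5461 counts were marked ambiguous by the authors.

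Among H2B genes, Hist1h2bj was at 17.4 and 4.597 CPM, 3.78-fold lower (3.32 to 4.31). Hist1h2bk was 2.88-fold lower and Hist1h2br 2.70-fold lower. Hist3h2ba, also on chromosome 11 (chr11:58948920-58949533, plus strand), went the other way, from 34 UMIs to 188. Its level was 0.687 and 2.73 CPM, a ratio of 3.98 (2.75 to 5.92), the highest among members with at least 50 UMIs. It was found in 0.264% of control and 1.42% of CX-5461 cells at 5000 UMIs, and its ratio without feeder-marker cells was 3.77.

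H3 genes, which encode the core histone that carries most of the well-known methylation marks, were mostly closer to their control level. Hist1h3c was at 18.3 and 11.99 CPM, 1.53-fold lower, and Hist1h3g at 9.98 and 5.66 CPM, 1.76-fold lower. Hist1h3h was at 9.64 and 7.27 CPM, a ratio of 0.755 (0.664 to 0.857). The interval of Hist1h3d, at 12.6 and 11.8 CPM, held 1 (0.840 to 1.04). Hist1h3i was higher, at 3.64 and 5.29 CPM, a ratio of 1.46 (1.21 to 1.75).

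H4, the partner of H3, was mostly lower. Hist1h4b was at 8.41 and 3.64 CPM, 2.31-fold lower, and Hist1h4d at 8.91 and 4.79 CPM, 1.86-fold lower. Hist2h4 (ENSMUSG00000091405.2, chr3:96261682-96263311, minus strand), whose annotated transcript runs 1257 bases past the stem-loop, was higher. It held 108 UMIs in the control and 343 with CX-5461, or 2.18 and 4.99 CPM, a ratio of 2.29 (1.84 to 2.87), and 2.26 without feeder-marker cells. Hist1h2ac, with the lowest ratio of the 55 members, runs 2010 bases past its stem-loop. Hist3h2ba, with the highest, runs 169. Whether this length bears on the ratio was not tested. Of the linker histones, Hist1h1b was at 9.80 and 5.60 CPM, 1.75-fold lower, and Hist1h1e at 4.77 and 2.91 CPM, 1.64-fold lower. Hist1h1a was at 6.43 and 7.80 CPM, a ratio of 1.21 (1.05 to 1.40) that falls under 1 with TMM scaling.

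The letters of the poly(A) signal, AATAAA, were present at any position of the longest annotated transcript in 17 of the 55 members with at least 200 UMIs. Such a match, called the signal here, need not be a site in use, which was not tested. Of these 17, 6 had a higher CPM with CX-5461, namely Hist1h1c, Hist1h1a, Hist3h2a, Hist3h2ba, Hist1h2bc and Hist2h4. Of the 38 without the signal, 2 were higher, Hist1h3i and Hist1h3b. Both groups lay below all genes, of which 8845 of 12358 were higher. The medians were close, at -1.08 with and -0.98 without the signal, and Hist1h2ac, the member with the lowest ratio of the 55, has the signal.

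Copies of histone genes resemble each other, and the authors marked part of the UMIs as ambiguous between genes. Over all genes this was 0.189% of control and 0.225% of CX-5461 UMIs. It was 1.42% and 6.14% for H2A, 5.73% and 3.84% for H2B, 5.93% and 10.9% for H3, 22.1% and 14.3% for H4 and 0.0543% and 0.112% for H1. The near-identical pair Hist2h2aa1 and Hist2h2aa2 had 94.7% of the control counts of Hist2h2aa2 in this state, Hist1h4m had 92.2%, Hist1h2bq 38.6% and Hist2h3c1 57.6%, so that their single values are uncertain. Hist2h3c1 also overlaps a same-strand gene, Gm20634. Of the H1 members Hist1h1e had the largest share, 0.424%. Hist1h1e also overlaps Hist1h2be and Gm11398 on the same strand, and 24.7% of its 100-base windows are shared with another member. For Hist1h2ap the ambiguous share was 1.12% in the control and 18.7% with CX-5461, and without ambiguous counts its log2 ratio was -3.24 in place of -2.94. Hist1h2ac, with 7.68% of its 100-base windows shared with another member, had no ambiguous count in either library. A UMI counted for a single H2A gene can still come from a copy that differs outside the sequenced bases, which was not tested.

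H2A and H2B genes often lie head to head. Their start sites were within 500 bases on opposite strands in 14 pairs, all H2A with H2B. Both members held at least 200 UMIs in 9 pairs. Both were lower with CX-5461 in 8 of the 9, and both were at least 2-fold lower in 6. Of single members, 47 of 55 were lower and 28 at least 2-fold lower, against 3513 and 459 of all 12358 genes. A count of pairs with both members lower is not the same measure as a count of members. Nothing particular to the pairs is read from these counts. The exception was Hist1h2ac with Hist1h2bc, whose starts are 251 bases apart. Hist1h2ac was 10.98-fold lower while Hist1h2bc had a ratio of 1.90 (1.82 to 1.99), and without feeder-marker cells the ratios were 0.0823 for Hist1h2ac and 1.06 (0.959 to 1.18) for Hist1h2bc. The stretch between them is shown because the pair shares it, as the RefSeq promoter entry of H2ac6, the current symbol of Hist1h2ac, at chr13:23683910-23684209 of GRCm38.p6, minus strand. Capitals mark the octamer ATGCAAAT, the CCAAT box on either strand and the TATA box TATAAA.
Hist1h2ac promoter: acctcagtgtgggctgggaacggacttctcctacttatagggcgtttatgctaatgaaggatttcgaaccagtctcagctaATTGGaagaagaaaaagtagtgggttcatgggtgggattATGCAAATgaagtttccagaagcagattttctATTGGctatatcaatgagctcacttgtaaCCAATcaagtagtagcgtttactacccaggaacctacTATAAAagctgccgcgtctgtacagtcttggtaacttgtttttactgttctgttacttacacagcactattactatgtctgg
On both strands, ATGCAAAT was in 21.3% of the 61 member promoters with a RefSeq entry and in 1.735% of all 32851 entries of the same length. It was in 7 of 17 H2A and 6 of 16 H2B promoters and in none of the 6 H1, 10 H3 and 12 H4 promoters. CCAAT was in 85.2% of member promoters and 37.4% of all, and TATAAA in 57.4% and 13.6%. These are matches of letters only.

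Hist1h2bc and Hist1h1c were counted mainly in the feeder-marker cells. These cells held 9.07% of all control UMIs and 5.73% of CX-5461 UMIs, yet 78.9% and 87.8% of the Hist1h2bc UMIs and 55.0% and 67.2% of the Hist1h1c UMIs. Within them Hist1h2bc stood at 503 CPM in the control and 1685 CPM with CX-5461, a ratio of 3.35 (3.19 to 3.52), and Hist1h1c at 84.7 and 243 CPM, a ratio of 2.87 (2.54 to 3.24). In the other cells Hist1h2bc was at 13.4 and 14.3 CPM and Hist1h1c at 6.91 and 7.19 CPM, with intervals of the ratio that held 1. Thinned to 5000 UMIs, Hist1h2bc was found in 76.6% of control and 97.5% of CX-5461 feeder-marker cells.

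Most members were lower in feeder-marker cells than in the others. Of 40 members with at least 200 UMIs in the control, 29 were at least 2-fold lower there, against 29.6% of all genes, with a median log2 difference of -2.15 over the 40 members and -0.27 over all genes. At least 2-fold higher were 7 of the 40, a share close to the 18.1% of all genes. The 7 were Hist1h2bc, Hist1h1c, Hist1h4a, Hist1h4i, Hist1h4h, Hist2h2aa1 and Hist3h2a. With CX-5461, 23 of 39 members were at least 2-fold lower, against 34.8% of all genes, and 10 at least 2-fold higher, against 16.5%. Hist1h4h was at 31.6 and 59.7 CPM in feeder-marker cells but at 6.001 and 2.05 CPM in the others, so that its ratio was 1.89 (1.53 to 2.34) in the former and 0.342 (0.276 to 0.422) in the latter. Hist1h4i was likewise at 28.3 and 59.2 CPM against 10.5 and 7.13 CPM. The summed H2A genes were far lower in feeder-marker cells, at 438 CPM in the control and 243 CPM with CX-5461, and the interval of their ratio lay below 1 (0.514 to 0.601). Whether H2A UMIs in these cells were free RNA from the ES cells or their own was not tested.

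**Figure D2:**
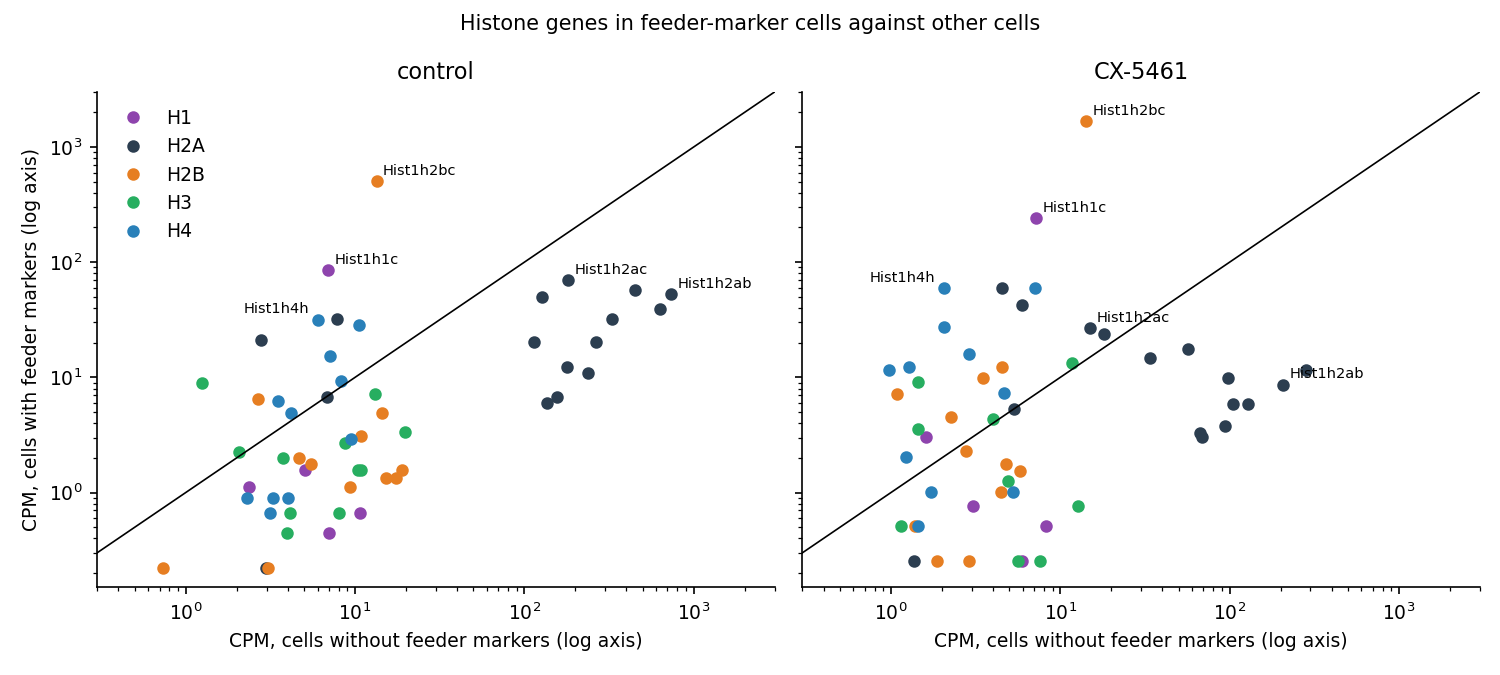
Level of each histone gene with at least 200 UMIs in feeder-marker cells (vertical) against the other cells (horizontal), in CPM on log axes, for control (left) and CX-5461 (right), coloured by type, with the line of equal level. Hist1h2bc and Hist1h1c lie far above the line in both, most H2A genes lie below it, and with CX-5461 Hist1h2ac lies just above it. Hist1h3g and Hist1h3h, at 0 in CX-5461 feeder-marker cells, are not drawn there.

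Almost every cell had some histone RNA, so that the amount per cell separated the libraries more than the share of cells. At 5000 UMIs per cell, which left 2654 control and 4501 CX-5461 cells, the share of cells with a histone UMI was 96.6% (95.9% to 97.3%) in the control and 91.0% (90.1% to 91.8%) with CX-5461. The unthinned shares had the reverse order, 83.2% and 93.3%, as more control cells were shallow. Shares at 5000 UMIs for H2A were 91.6% and 85.1%, for H2B 40.6% and 22.4%, for H3 29.5% and 22.9%, for H4 23.2% and 14.5% and for H1 16.7% and 13.5%. In feeder-marker cells, whose median depths were 20725 and 23476.5 UMIs against 12658.5 and 14080 in the others, the H2A share was 55.2% and 64.8%. The H2A share is therefore read against a level that cells with few H2A UMIs also reach.

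The number of H2A UMIs per cell differed in shape. Without feeder-marker cells, the 2462 control cells had a median of 16 H2A UMIs in 5000, with the middle of the cells between 5 and 29 (25th and 75th percentiles). The 4339 CX-5461 cells had a median of 5 and percentiles of 2 and 9. Control cells held a first group near 0 and a broad shoulder that reached past 30, while the CX-5461 counts fell off from 0 onward. Cells with at least 20 H2A UMIs made up 42.2% (40.3% to 44.2%) of the control and 4.06% (3.49% to 4.69%) of the CX-5461 library. The variance over the mean, which is near 1 for counting error alone, was 14.5 in the control and 6.14 with CX-5461. Where cells differ it also grows with the mean, which was 18.9 in the control and 6.17 with CX-5461. It therefore does not rank the libraries by how much their cells vary relative to the mean. Doublets were not removed, and 6 of 192 control feeder-marker cells held at least 20 H2A UMIs.

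**Figure D3:**
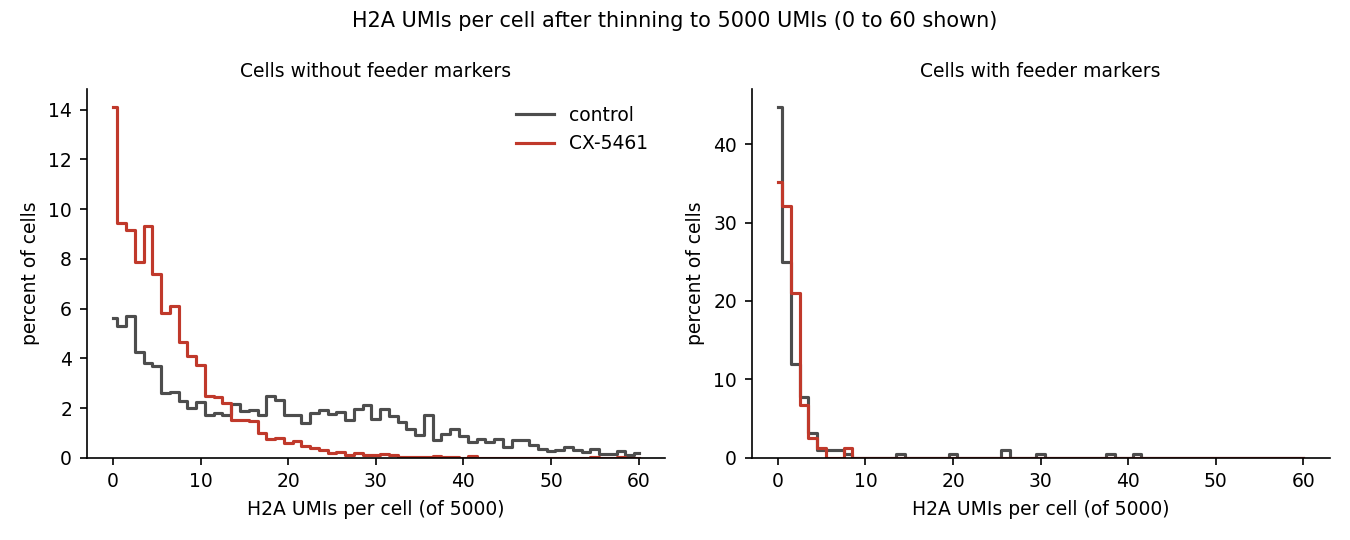
Percent of cells (vertical) by the number of H2A UMIs per cell after thinning to 5000 UMIs (horizontal, 0 to 60), for control (grey) and CX-5461 (red), in cells without (left) and with feeder markers (right). The control curve on the left has a long shoulder out to about 40 that the CX-5461 curve lacks, and feeder-marker cells mostly hold 0 to 3.

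Histone mRNA is tied to S phase, so cells were next ranked by S-phase genes (Mcm2, Mcm3, Mcm4, Mcm5 and Mcm6 of the replicative helicase, and the clamp Pcna) and G2/M genes (the cyclin Ccnb1 and the mitotic activator Cdc20). The summed S-phase genes were at 548 and 575 CPM and the G2/M genes at 291 and 310 CPM in the control and with CX-5461. A cell was called high with at least 5 S-phase or 3 G2/M UMIs of 5000, the same cut in both libraries. This gave 380 S-high, 435 G2/M-high, 110 doubly high and 1729 other cells in the control, and 684, 760, 223 and 2834 with CX-5461. The classes are ranges of a sparse score, with 407 and 681 cells 1 UMI short of the S cut and 520 and 895 cells 1 UMI short of the G2/M cut. Feeder-marker cells were in neither high class, and median depths ran from 12984 to 16657 UMIs. The median mitochondrial share was 1.86% to 1.95% in the control classes and 4.03% to 4.59% in the CX-5461 classes, and its part in the difference between libraries was not tested.

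H2A was higher in S-high than in G2/M-high cells in both libraries, and more so in the control. In the control it was at 4658 CPM (4604 to 4713) in S-high and 2432 CPM (2397 to 2467) in G2/M-high cells, a ratio of 1.92 (1.88 to 1.95). With CX-5461 it was at 1255 CPM (1233 to 1278) and 913 CPM (896 to 930), a ratio of 1.37 (1.34 to 1.41). Levels with CX-5461 were thus 3.71-fold below the control in S-high, 2.66-fold in G2/M-high, 4.26-fold in doubly high and 2.87-fold in other cells. The lower H2A level was present in every class. The contrast between classes depended on how they were cut. With cells thinned to 3100 UMIs the log2 H2A ratio of S-high over G2/M-high cells was 0.82 in the control and 0.11 with CX-5461, against 0.94 and 0.46 at 5000.

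In the control all 12 H2A genes with at least 200 UMIs in the high classes were at least 1.5-fold higher in S-high cells, together with 4 further genes among 4834, or 0.331% in all. Genes at least 1.5-fold lower made up 0.352%. Their ratios ran from 1.57 for Hist1h2ao to 2.01 for Hist1h2ab and Hist1h2ac. With CX-5461, 0 of the same 12 genes reached 1.5-fold, against 0.343% of all 7297 genes that were higher and 0.439% that were lower. Their ratios ran from 1.19 for Hist1h2ac, with an interval that held 1 (0.929 to 1.51), to 1.45 for Hist1h2ai. No p-value goes with this count of 0, as each condition was 1 library. Hist1h2ab was at 978 and 486 CPM in S-high and G2/M-high control cells and at 217 and 153 CPM with CX-5461.

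**Figure D4:**
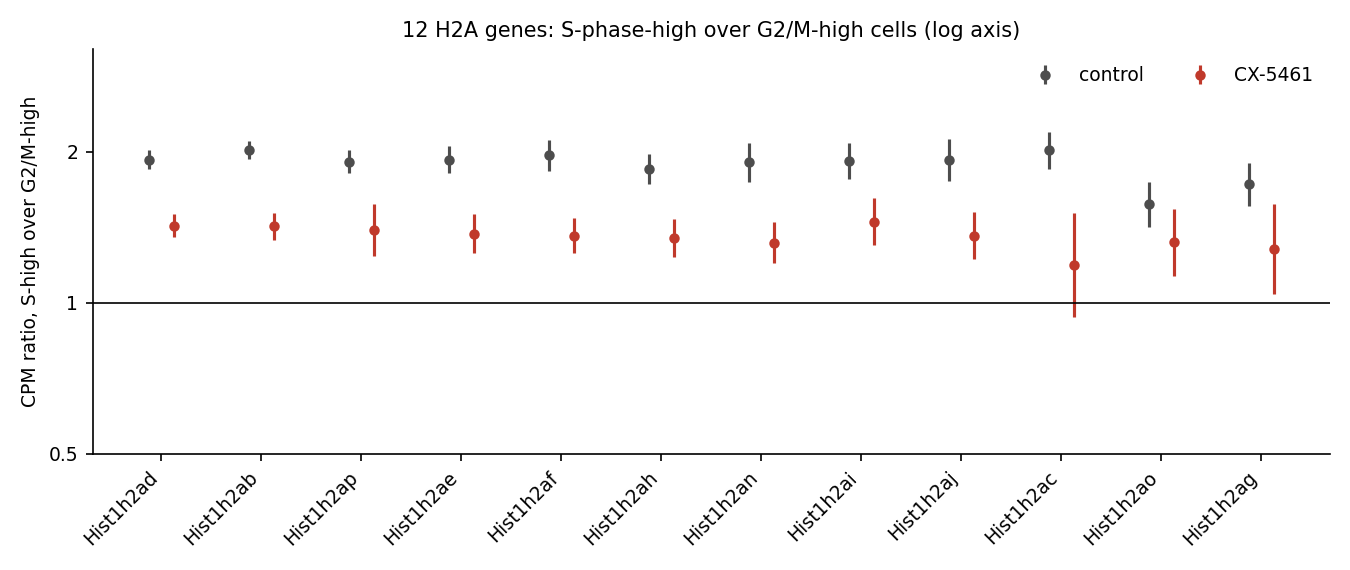
Ratio of CPM in S-high over G2/M-high cells (vertical, log axis) for the 12 most abundant H2A genes in control (grey) and CX-5461 (red), with 95% counting intervals. Control points lie between 1.57 and 2.01, CX-5461 points between 1.19 and 1.45, and each gene's control point lies above its CX-5461 point.

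Of the other types as sums, only H1 had a ratio whose interval lay above 1, and only in the control. Their counts were low. In the control high classes 0 members of H1, 2 of H2B, 1 of H3 and 0 of H4 held at least 200 UMIs. In the control the S-high over G2/M-high ratio was 1.43 (1.18 to 1.73) for H1, 1.10 for H2B, 1.09 for H3 and 1.02 for H4, and the intervals of the last 3 held 1. With CX-5461 it was 1.14 for H1, 1.00 for H2B, 0.961 for H3 and 1.01 for H4, with 1 in each interval. Hist1h1b was at 14.0 and 8.35 CPM in S-high and G2/M-high control cells, a ratio of 1.67 (1.20 to 2.36). Hist2h4 was at 6.16 and 3.89 CPM with CX-5461, a ratio of 1.58 (1.06 to 2.37), on few counts. H2afz, a histone variant made outside S phase too, had a ratio of 0.989 in the control and 0.986 with CX-5461.

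Cells without feeder markers were also sorted by their number of phase UMIs. From 0 to 6 or more S-phase UMIs, H2A in the control went from 2923 to 4695 CPM. With CX-5461 it changed little between the same ends, from 1331 to 1128 CPM. The classes above, cut on both scores, still had more H2A in S-high than in G2/M-high CX-5461 cells. From 0 to 4 or more G2/M UMIs, it went from 4676 to 2205 CPM in the control and from 1382 to 783 CPM with CX-5461. Cells richest in S-phase UMIs thus had the most H2A in the control only, while cells richest in G2/M UMIs had the least in both. The number of S-phase UMIs and of H2A UMIs come from the same cells, and median depth went from 17498 to 14033 UMIs in the control and from 14582.5 to 13144 with CX-5461 along the S-phase axis.

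**Figure D5:**
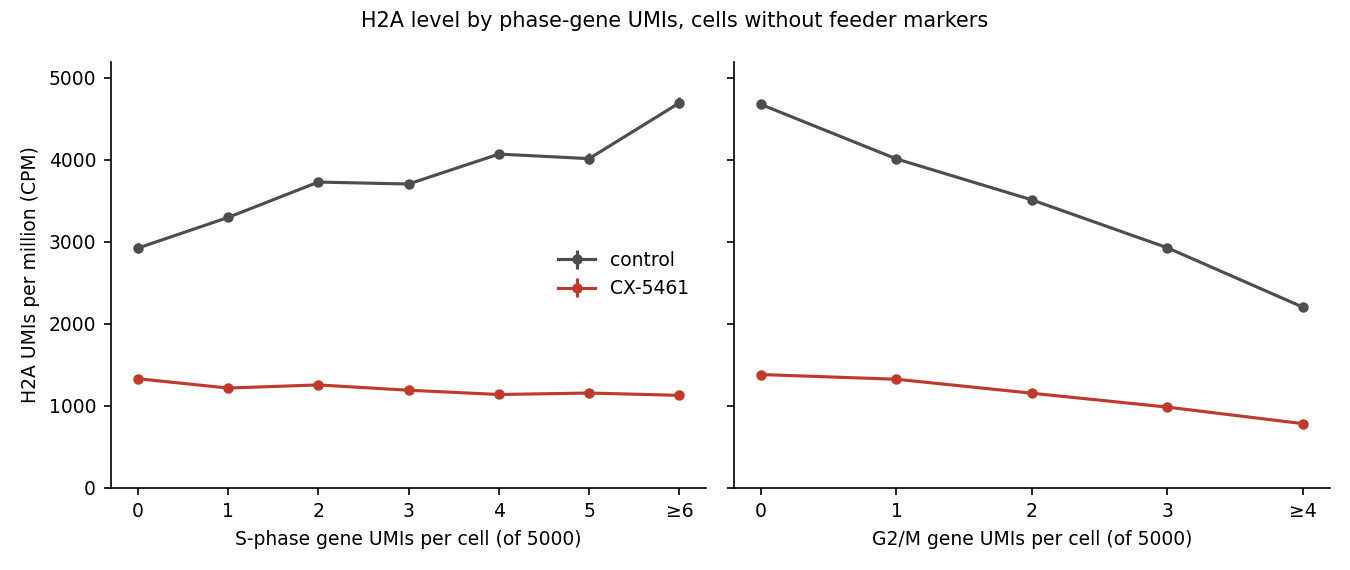
H2A level in CPM (vertical, from 0) by the number of S-phase gene UMIs (left) and G2/M gene UMIs (right) per cell thinned to 5000 UMIs, in cells without feeder markers, for control (grey) and CX-5461 (red), with 95% counting intervals mostly smaller than the points. The control line climbs to 4695 CPM on the left and drops to 2205 CPM on the right, and the CX-5461 line is nearly flat on the left.

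Genes that make and handle histone mRNA, and genes of histone chaperones, were mostly not lowered with the histones. Both kinds were counted as 1 list of 18 genes, all with at least 200 UMIs. Of the 18, 15 had a higher CPM with CX-5461, 1 of them at least 2-fold, and 0 were at least 2-fold lower. The 3 with a lower CPM were Slbp, Lsm11 and the chaperone Nasp. The median log2 ratio of the 18 was 0.29 beside 0.34 for all genes. Among all genes 8845 of 12358 were higher, 17.8% at least 2-fold, and 3.71% at least 2-fold lower. Slbp, the stem-loop binding protein, was at 107 and 101 CPM, a ratio of 0.9402 (0.907 to 0.975). Npat, the activator of histone transcription, was at 8.57 and 11.7 CPM, and its partner in histone locus bodies Casp8ap2 at 22.2 and 39.1 CPM. Lsm10 of the U7 particle was at 24.5 and 43.4 CPM, Lsm11 at 2.65 and 2.62 CPM and Zfp473 at 1.52 and 2.63 CPM. The scaffold of the cleavage complex Sympk was at 9.74 and 20.8 CPM, a ratio of 2.13, its nuclease Cpsf3 at 14.2 and 17.0 CPM and Cpsf2 at 31.7 and 34.1 CPM. Eri1, which trims histone mRNA ends, was at 17.2 and 17.7 CPM.

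Histone chaperones had ratios from 0.835 for Nasp, which holds soluble H3 and H4, to 1.69 for Hat1, the acetyltransferase of new H4. Asf1b was at 26.2 and 39.0 CPM, Asf1a at 21.8 and 27.4 CPM, and the CAF-1 subunits Chaf1a at 22.6 and 32.9 CPM and Chaf1b at 40.7 and 48.6 CPM. The FACT subunits Ssrp1 and Supt16 had ratios of 1.09 and 1.18. Under TMM scaling the median of the 18 genes was -0.05.

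Histone variant genes, which are mostly polyadenylated and expressed outside S phase as well, had a median log2 ratio of 0.07 over 11 genes. The median of all genes was 0.34, and 4 of the 11 lay above it. Of the 11, 7 had a higher CPM with CX-5461 and 4 a lower one. Under TMM scaling the median was -0.28 for the 11 and -0.01 for all genes. H2afz was at 2757 and 2206 CPM, a ratio of 0.800 (0.794 to 0.806), and H2afy, the macroH2A gene, had a ratio of 0.751. H2afx was at 360 and 355 CPM and Cenpa, the centromeric H3, at 197 and 204 CPM. The H3.3 genes were higher, H3f3a at 583 and 874 CPM and H3f3b at 1394 and 1935 CPM, as were H2afv at 294 and 418 CPM and the linker variant H1f0 at 29.5 and 50.9 CPM. H1fx had the lowest ratio of the 11, at 4.35 and 1.03 CPM, a ratio of 0.238 (0.179 to 0.312).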

How the data were processed

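UMI counts per gene and barcode were used as the authors deposited them, unnormalized, in 1 table per condition made with a published droplet pipeline; the submitters' processing notes name Seurat 2.3.4. A second column gives counts the authors marked as ambiguous, which the deposited counts already include. The study's methods name Bowtie as the aligner of that pipeline, exchanged for HISAT2 only to count repeat sequences, and give no Bowtie version. Symbols came from GENCODE M21 by identifier without version (54079 of 54146 matched). Barcode names are running labels, of which 3838 occur in both tables by construction, so shared cells could not be counted. Barcodes were kept from 500 UMIs up and to a mitochondrial fraction of 0.2, and doublets were not removed. Levels are CPM of summed UMIs with exact Poisson intervals, ratios have exact conditional binomial intervals and shares Clopper-Pearson intervals, all at 95%. Thinning drew 5000 UMIs per cell at random without replacement, and shallower cells were left out (1113 control and 196 CX-5461). A fold was computed only where 1 library held more than 3 counts. Scripts used Python 3.11.15, numpy 2.4.6, scipy 1.17.1 and edgeR 4.0.16 (TMM only), and were tested on simulated data. No p-value was computed, as cells of 1 library are not replicates. Genes named are, per type, the 4 with the most UMIs and the 1 with the highest ambiguous share, the 3 highest and 3 lowest ratios from 50 UMIs up, and fixed lists of phase, variant and supply genes; Hist1h2ai, Hist1h2an, Hist1h2ao, Hist3h2bb-ps, Hist1h2ba, Hist1h1t, Hist1h3b, Hist1h3i, Hist3h2a, Hist1h4a and Hist2h2aa1 were named after their values were seen. Members and lists were chosen with earlier results of these data known. The alternatives were TMM scaling, other gene minima and folds, stricter cell filters, cells left out, per-cell means, other thinning and other phase cuts.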

Additional observations from a re-analysis of the deposited data

Results flagged for a closer look

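The ratio of CX-5461 over control ran in opposite directions in feeder-marker cells and in the other cells for H1, H2B and H4. For H1 it was 2.80 (2.49 to 3.15) in feeder-marker cells and 0.812 in the others. For H2B it was 3.26 (3.11 to 3.42) and 0.416, with Hist1h2bc holding most of the feeder-marker UMIs. For H4 it was 1.95 (1.74 to 2.19) and 0.495. The difference was not tested, since each condition was 1 library.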

How the results depend on the processing

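No paired analysis was possible because each condition is 1 table without a sample of origin. The addition of ambiguous counts was not run, since the deposited counts hold them; their removal and phase scores as shares of all UMIs were chosen after seeing the data. On the log2 scale the histone ratio, -1.35, was -1.70 with TMM, -1.36 in cells of at least 5000 UMIs and at most 0.1 mitochondrial, -1.08 as a mean over cells of CPM, -1.51 without feeder-marker cells, -1.34 without the 5% of cells with the most UMIs and -1.43 without ambiguous counts. For H2A, -1.54, the same settings gave -1.88, -1.55, -1.21, -1.59, -1.44 and -1.62. H1, 0.06, turned to -0.29 with TMM, -0.30 without feeder-marker cells and -0.12 without the 5% of cells with the most UMIs. The 28 of 55 members at 0.5 or less became 34 of 65 with a minimum of 50 UMIs and 34 of 69 with 1 UMI. They became 36 of 55 with TMM and 38 of 55 at 1.5-fold. The share of all genes, 3.71%, became 4.83% with 50 UMIs, 11.9% with 1 UMI, 7.15% with TMM and 8.14% at 1.5-fold. The 2 members at 2 or more became 1 with TMM and 4 at 1.5-fold. The share of all genes, 17.8%, became 11.4% and 34.4%. The difference in the share of cells with a histone UMI, -5.64 percentage points, was -7.70 at 3100 UMIs and 10.1 unthinned; unthinned differences were 2.03 for H1 and 10.4 for H2A. The log2 ratio of S-high over G2/M-high cells, 0.87 in the control and 0.40 with CX-5461, was 0.76 and 0.068 at 3100 UMIs, 0.83 and 0.34 as means over cells, and 1.42 and 0.51 with scores as shares of all UMIs. A wider upper class and 1 cut for both libraries gave the main cuts again. The other settings kept the direction. Apart from what a setting's own construction shows, the cause was not tested. What limits all values is 1 library per condition, capture by poly(A), and counts split between copies.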

Other observations

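Members known mainly from the testis were also counted. Hist1h2ba, a testis H2B gene chosen after its values were seen, held 147 UMIs in the control and 49 with CX-5461, or 2.97 and 0.713 CPM, a ratio of 0.240 (0.170 to 0.334). Of these UMIs, 6 and 13 were in feeder-marker cells. Hist1h1t, the testis linker histone, held 2 and 6 UMIs, a ratio of 2.16 whose interval ran from 0.386 to 21.9.

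Slbp followed the phase classes in both libraries. It was at 143 CPM (134 to 153) in S-high and 112 CPM (105 to 120) in G2/M-high control cells, a ratio of 1.27 (1.16 to 1.40). With CX-5461 it was at 116 and 92.1 CPM, a ratio of 1.26 (1.16 to 1.37).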
